A study of Mus musculus with 5 samples.

Results

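The genes described here are 43 stromal and extracellular matrix genes that mark the feeder fibroblasts of an epiblast stem cell culture. They were chosen by name, and every array probe annotated to them was read: 41 had a probe, 60 probes in all, among 16593 genes measured. No probe matched Col6a3 or Fn1. Each condition was 1 culture of the mouse line E3, epiblast stem cells taken from the post-implantation embryo, on 1 Illumina bead array. All 5 cultures had grown on inactivated CF1 mouse embryonic fibroblasts with knockout serum replacement medium and 5 ng/ml FGF2, and at semiconfluence they were kept for 12 h in the same medium without FGF2. The untreated culture received nothing else. PD received 1 µM PD0325901, which blocks the kinase MEK upstream of ERK, CH received 3 µM CHIR99021, which blocks the kinase GSK3, LIF received 1000 U/ml leukemia inhibitory factor, and PCL received all of these agents at those doses. The labels name the E3 line as the source and do not say whether feeder cells were removed before lysis, so the RNA may hold transcripts of both cell types, and a given transcript cannot be assigned to either. The question was whether these genes differ from the untreated array by like amounts, as a changed share of feeder RNA would give, or gene by gene.

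Fibroblasts secrete the fibrillar collagens, proteoglycans and glycoproteins of connective tissue, together with the enzymes that crosslink and cleave them and the inhibitors of those enzymes. Inactivated embryonic fibroblasts do not divide but go on secreting matrix and growth factors under the stem cells. Several of these genes, among them those for type IV collagen and vimentin, are also used by epiblast-derived cells, while lumican, decorin, periostin and the PDGF receptors are usual marks of mesenchyme.

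Detection means a detection p-value under 0.01, which ranks a probe's brightness among the negative control probes. Between 10389 (PCL) and 10898 (LIF) of 25697 probes were detected per array, and the median bead standard error was 4.13% to 4.39% of the intensity. Levels are log2 intensities after background correction and joint normalization, with the lowest detected level between 5.02 and 5.17. A difference is treated minus untreated on that scale, ± the bead standard error of both arrays, which covers measurement within an array and not the spread between cultures. With 1 array per condition no difference has a replicate check and none was tested, and all comparisons with the untreated array share its values. Levels of different probes are not compared with each other.

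Of the 41 genes with a probe, 27 were detected on all 5 arrays, 7 on 1 to 4 arrays and 7 on no array. Those detected on no array were Col1a2, Col3a1 and Col5a2, which encode fibrillar collagen chains, Postn (the matrix protein periostin), Pdgfrb (a PDGF receptor), S100a4 (a calcium-binding protein of fibroblasts) and Ccl2 (a chemokine). The number detected was 32 on the untreated array, 31 under PD, 32 under CH, 32 under LIF and 29 under PCL. Of the defining fibroblast genes, Col1a1, Dcn, Lum, Thy1 and Twist2 were thus detected on every array, while Col1a2, Col3a1, Postn and Pdgfrb were detected on none with these probes. The markers of the epiblast stem cells themselves, 15 of 15 with a probe, were detected on every array, and their summed intensity ran from 22804 (PCL) to 34458 (LIF). The summed intensity of the stromal genes ran from 16297 (LIF) to 20024 (PD). Bright genes weigh most in such a sum: the 5 detected cytoskeletal and cytosolic genes alone ran from 5546 (LIF) to 8877 (PD). Of other cell types the cultures could hold, endothelial markers were detected for 1 of 5 genes with a probe (Pecam1) and macrophage markers for 1 of 3 (Lyz2), which was not detected with LIF. Between 4 and 6 of 12 primitive and parietal endoderm markers were detected per array, and their summed intensity ran from 194 (LIF) to 292 (CH). Mesoderm markers were detected on the CH array (Mixl1 and Eomes) and on the PCL array (1 gene), and on no other. The part of any other cell type in the differences below was not tested.

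Against the untreated array the stromal genes spread to both sides of 0 in every comparison. With PD, 23 of 33 stood above 0 and 10 below, with a median of 0.12. With CH, 14 of 34 stood above and 20 below (median -0.12), with LIF 13 of 33 above and 20 below (median -0.09), and with PCL 16 of 33 above and 17 below (median -0.03). The medians over all genes compared were 0.00, -0.01, 0.05 and 0.00 in the same order. Of all genes compared, 3894 of 7761, 3737 of 7699, 4302 of 7796 and 3776 of 7652 stood above 0. Whether the stromal genes shifted by a common amount besides their single differences was not tested. In these bulk samples, fewer cells of a type and less RNA per cell cannot be told apart. Each comparison took the genes detected on either or both of its arrays, and a gene detected on only 1 of them had to differ in that direction. The genes counted here are therefore not all 43.

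**Figure D1:**
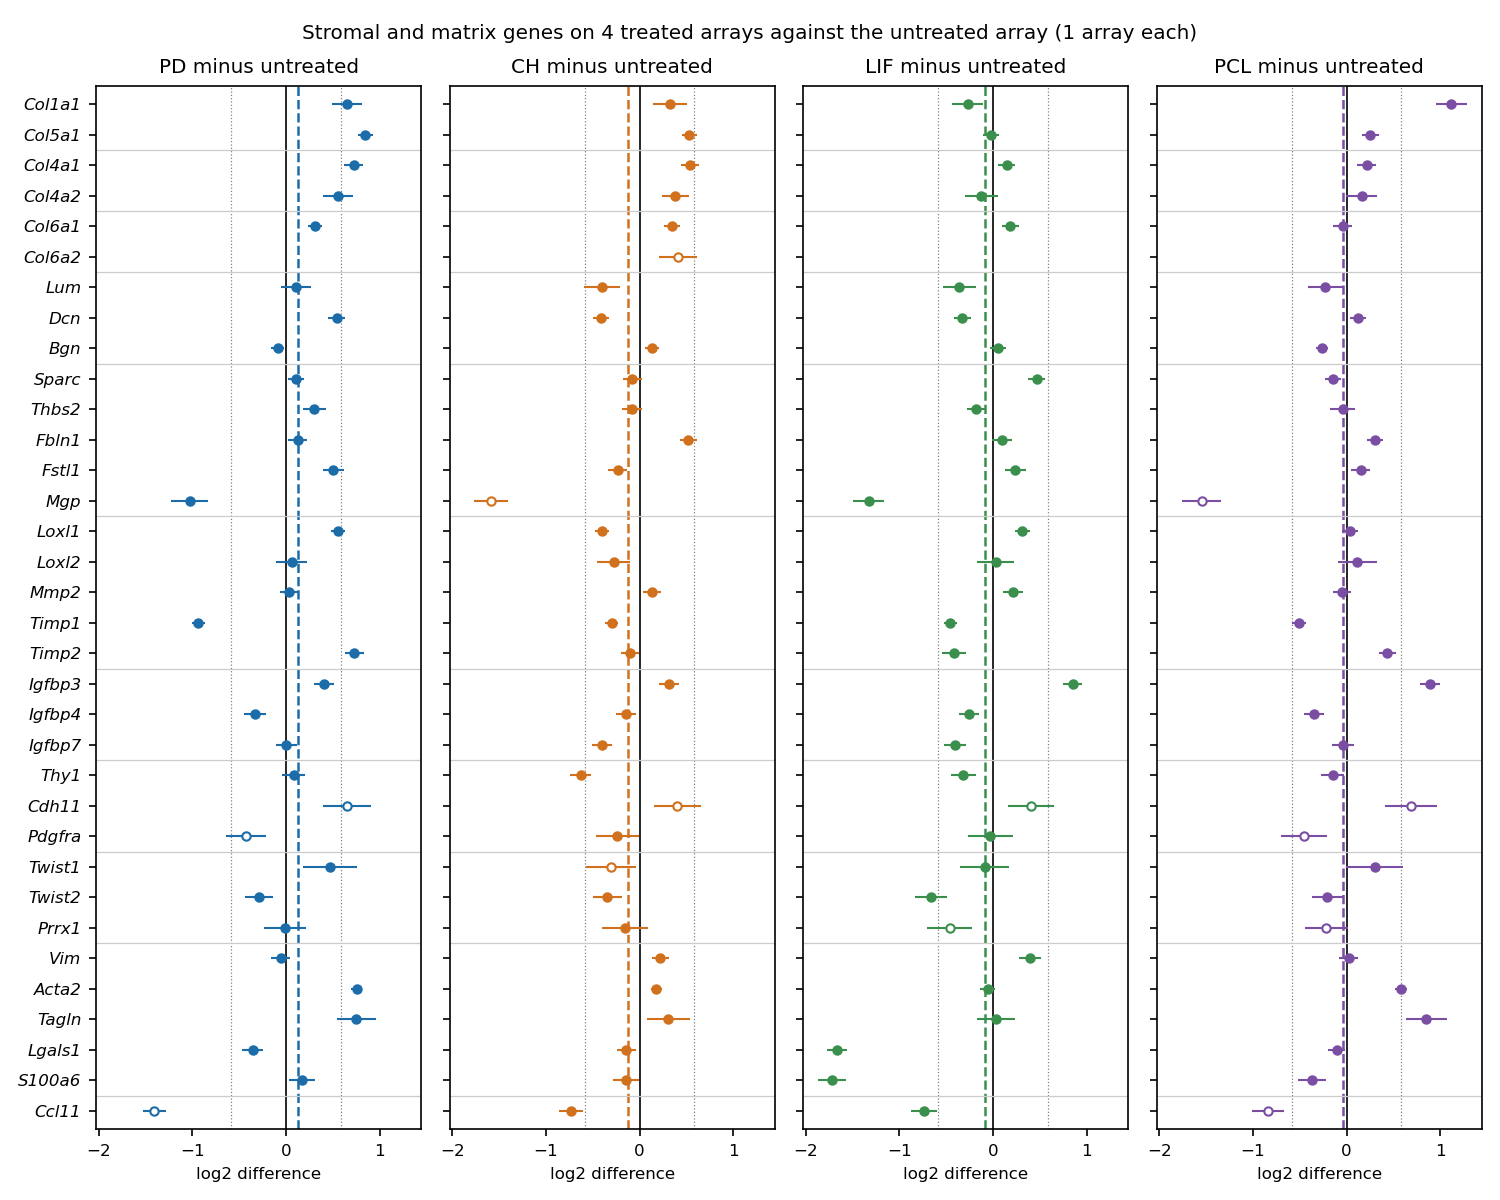
Log2 difference of each stromal gene from the untreated array in the 4 comparisons, ordered by role, with bars of 1 bead standard error; open points were detected on 1 of the 2 arrays only, the dashed line is the median of the stromal genes, and the dotted lines mark 1.5-fold. Col5a1 and Acta2 lie to the right with PD while Mgp, Timp1 and Ccl11 lie to the left, and with LIF Lgals1 and S100a6 stand far to the left of the other genes.

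Past 1.5-fold, 7 of 33 stromal genes stood higher with PD, against 5.75% of all genes compared, and 3 lower, against 4.63% (10.4% in either direction). Past 2-fold none stood higher (all genes 0.49%) and 2 lower (0.451%). With CH, 0 of 34 stood higher past 1.5-fold (all genes 4.03%) and 3 lower (3.95%, or 7.98% in either direction), and past 2-fold 0 higher (0.572%) and 1 lower (0.39%). Scaling each array by its median in place of quantile normalization gave 3 higher and 2 lower with CH. With LIF, 1 of 33 stood higher past 1.5-fold (4.3%) and 5 lower (8.5%, or 12.8% in either direction), and past 2-fold 0 higher (0.154%) and 3 lower (2.81%). With PCL, 4 of 33 stood higher (3.78%) and 2 lower (4.73%, or 8.51% in either direction), and past 2-fold 1 higher (0.706%) and 1 lower (0.68%). Setting genes detected on 1 array at their bound took Cdh11 out of the higher genes of PD and PCL and Ccl11 out of the 2-fold lower genes of PD, and changed no other of these calls. The bound is the brighter level against the higher of the lowest detected level and the probe's own level on the dimmer array, and such genes are given as "at least N-fold". Without background correction, the genes past 1.5-fold were Col5a1, Timp2, Acta2 and Timp1 with PD, Mgp with CH, Igfbp3, Mgp, Lgals1 and S100a6 with LIF, and Col1a1, Igfbp3 and Mgp with PCL. The share of all genes past 1.5-fold with PD was then 2.19%.

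All 4 detected chains of fibrillar and type IV collagen stood above the untreated array with PD, CH and PCL. Col5a1, a chain of the fibril-nucleating type V collagen, stood at 8.75 on the untreated array, 9.59 under PD, 9.28 under CH, 8.73 under LIF and 9.00 under PCL. It was thus highest with PD and CH, by 0.85 ± 0.08 and 0.53 ± 0.08, and within its bead error of untreated with LIF, at -0.02 ± 0.08. Col1a1, the main chain of type I collagen, stood at 6.22 untreated, 6.87 with PD, 6.54 with CH, 7.34 with PCL and 5.95 with LIF. Here the combination was the highest array, by 1.12 ± 0.17 over untreated, and LIF the lowest, at -0.27 ± 0.17. The differences of Col1a1 with PD and CH were 0.65 ± 0.16 and 0.32 ± 0.18. Both detected fibrillar collagens therefore stood above untreated with PD, CH and PCL and below it with LIF, where median scaling put 1 of the 2 above.

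The 2 chains of type IV collagen, the network of basement membranes, stood higher by like amounts with PD and with CH. Col4a1 stood at 7.84 untreated, 8.56 under PD, 8.38 under CH, 7.98 under LIF and 8.05 under PCL. Col4a2 stood at 7.20 untreated, 7.75 with PD, 7.58 with CH, 7.36 with PCL and 7.07 with LIF. In both, PD was the highest array and CH the next, with differences from untreated of 0.72 ± 0.10 and 0.54 ± 0.09 for Col4a1 and 0.55 ± 0.16 and 0.38 ± 0.14 for Col4a2. The LIF differences were 0.14 ± 0.09 and -0.12 ± 0.17, and the PCL differences 0.21 ± 0.10 and 0.16 ± 0.16. Both stood above untreated with PD, CH and PCL under every processing tried.

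The genes of this pair lie head to head. In RefSeq on GRCm38.p6 the annotated start of Col4a2 (plus strand) and that of Col4a1 (minus strand) lie within 22 bases of each other on chromosome 8, so their promoter windows of 300 bases overlap by 78 bases. The stretch from the first start to the other, chr8:11312805-11312826, plus strand, lies within the annotated 5′ ends of both genes. It is shown because both genes stood higher by like amounts with PD and with CH, in lower case with no part marked.
Col4a2 to Col4a1: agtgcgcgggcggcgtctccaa

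Col6a1, a chain of the microfibrillar type VI collagen, stood at 7.59 untreated, 7.90 under PD, 7.94 under CH, 7.77 under LIF and 7.54 under PCL. The differences were 0.31 ± 0.08, 0.35 ± 0.09, 0.19 ± 0.09 and -0.04 ± 0.10, and the other detected probe of the gene gave 0.39, 0.09, 0.12 and 0.12. Col6a2, its partner chain, was detected with CH only, where it was at least 1.03-fold higher than untreated.

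The small leucine-rich proteoglycans, which coat collagen fibrils, did not go together. Dcn (decorin) stood at 8.56 untreated, 9.10 with PD, 8.15 with CH, 8.68 with PCL and 8.23 with LIF. Its difference with PD was 0.54 ± 0.09 and with CH -0.41 ± 0.09, so the collagens and decorin stood on the same side with PD and on opposite sides with CH. The other probe of Dcn gave 0.28 with PD and -0.54 with CH, but 0.05 with LIF, where the representing probe gave -0.33 ± 0.09. Bgn (biglycan) stood at 11.08 untreated, 10.99 under PD, 11.22 under CH, 11.14 under LIF and 10.82 under PCL. Its largest difference was the -0.26 ± 0.07 of PCL. Lum (lumican) had differences of -0.40 ± 0.19 with CH, -0.36 ± 0.17 with LIF, -0.23 ± 0.19 with PCL and 0.11 ± 0.16 with PD.

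Among the matrix glycoproteins the calcification inhibitor Mgp (matrix Gla protein) stood apart. Its level was 6.65 untreated, 5.62 with PD, 5.06 with CH, 5.10 with PCL and 5.32 with LIF, and it was not detected with CH or PCL. All treated arrays thus lay below the untreated array. Its difference was -1.03 ± 0.20 with PD and -1.33 ± 0.16 with LIF, and it was at least 2.89-fold lower with CH and at least 2.80-fold lower with PCL. Against the mean of the arrays without the agent in question, the Mgp difference was -0.06 with PD, -0.80 with CH and -0.45 with LIF. Because a single untreated array stands against all the others, a high value on that array alone and a decrease under every agent cannot be told apart.

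Sparc, a collagen-binding glycoprotein, stood at 10.29 untreated, 10.39 under PD, 10.21 under CH, 10.75 under LIF and 10.14 under PCL. The LIF difference of 0.47 ± 0.09 was not seen with its other probe, which gave -0.01. Fbln1 (fibulin 1) stood at 8.73 untreated, 8.86 with PD, 9.25 with CH, 9.04 with PCL and 8.83 with LIF. It was highest with CH, at 0.52 ± 0.09 (other probe 0.28), and next with PCL, at 0.30 ± 0.09 (other probe 0.45). Fstl1, a secreted follistatin-like protein, differed by 0.51 ± 0.11, -0.23 ± 0.11, 0.24 ± 0.11 and 0.15 ± 0.10 in the order PD, CH, LIF, PCL. Thbs2, a thrombospondin, lay between -0.18 with LIF and 0.30 with PD.

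The 2 tissue inhibitors of metalloproteinases among the stromal genes, Timp1 and Timp2, differed in opposite directions with PD. A further inhibitor, Timp3, belongs to the wider list described below and stood higher with PD, at 1.48 ± 0.15. Timp1 stood at 10.73 untreated, 9.79 under PD, 10.43 under CH, 10.27 under LIF and 10.22 under PCL. It was lower on every treated array, most so with PD, at -0.93 ± 0.07, with -0.30 ± 0.07 for CH, -0.45 ± 0.07 for LIF and -0.51 ± 0.07 for PCL. Its other probe gave -0.83, -0.36, -0.70 and -0.63, so the direction did not depend on the probe. Timp2 stood at 8.29 untreated, 9.01 with PD, 8.18 with CH, 8.72 with PCL and 7.87 with LIF. It was higher with PD, at 0.73 ± 0.10, and with PCL, at 0.43 ± 0.09, and lower with LIF, at -0.42 ± 0.13.

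The other enzymes of the matrix differed less. Mmp2, a gelatinase, stood at 8.85 untreated, 8.87 under PD, 8.98 under CH, 9.06 under LIF and 8.79 under PCL, the smallest range of any stromal gene detected on all arrays (0.26). Loxl1, which crosslinks elastin and is named here after its values were seen, stood at 8.74 untreated, 9.29 with PD, 8.34 with CH, 8.77 with PCL and 9.05 with LIF. It lay above untreated with PD, at 0.56 ± 0.08, and LIF, at 0.31 ± 0.08, and below it with CH, at -0.40 ± 0.08. Loxl2, a relative of it, ranged from -0.28 with CH to 0.12 with PCL.

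Igfbp3, a carrier of insulin-like growth factors, was lowest on the untreated array. Its level was 9.06 untreated, 9.46 under PD, 9.37 under CH, 9.90 under LIF and 9.94 under PCL. The arrays with LIF stood highest, at 0.85 ± 0.11 for LIF and 0.89 ± 0.11 for PCL, against 0.41 ± 0.10 for PD and 0.31 ± 0.11 for CH. Igfbp7, a matrix-bound relative, stood at 9.00 untreated, 9.01 with PD, 8.60 with CH, 8.97 with PCL and 8.59 with LIF. It was lower with CH, at -0.40 ± 0.11, and LIF, at -0.41 ± 0.12, and within its bead error of untreated with PD and PCL. Igfbp4 gave -0.33 ± 0.12 with PD by 1 probe and 0.27 by the other, and no direction is given for it.

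**Figure D2:**
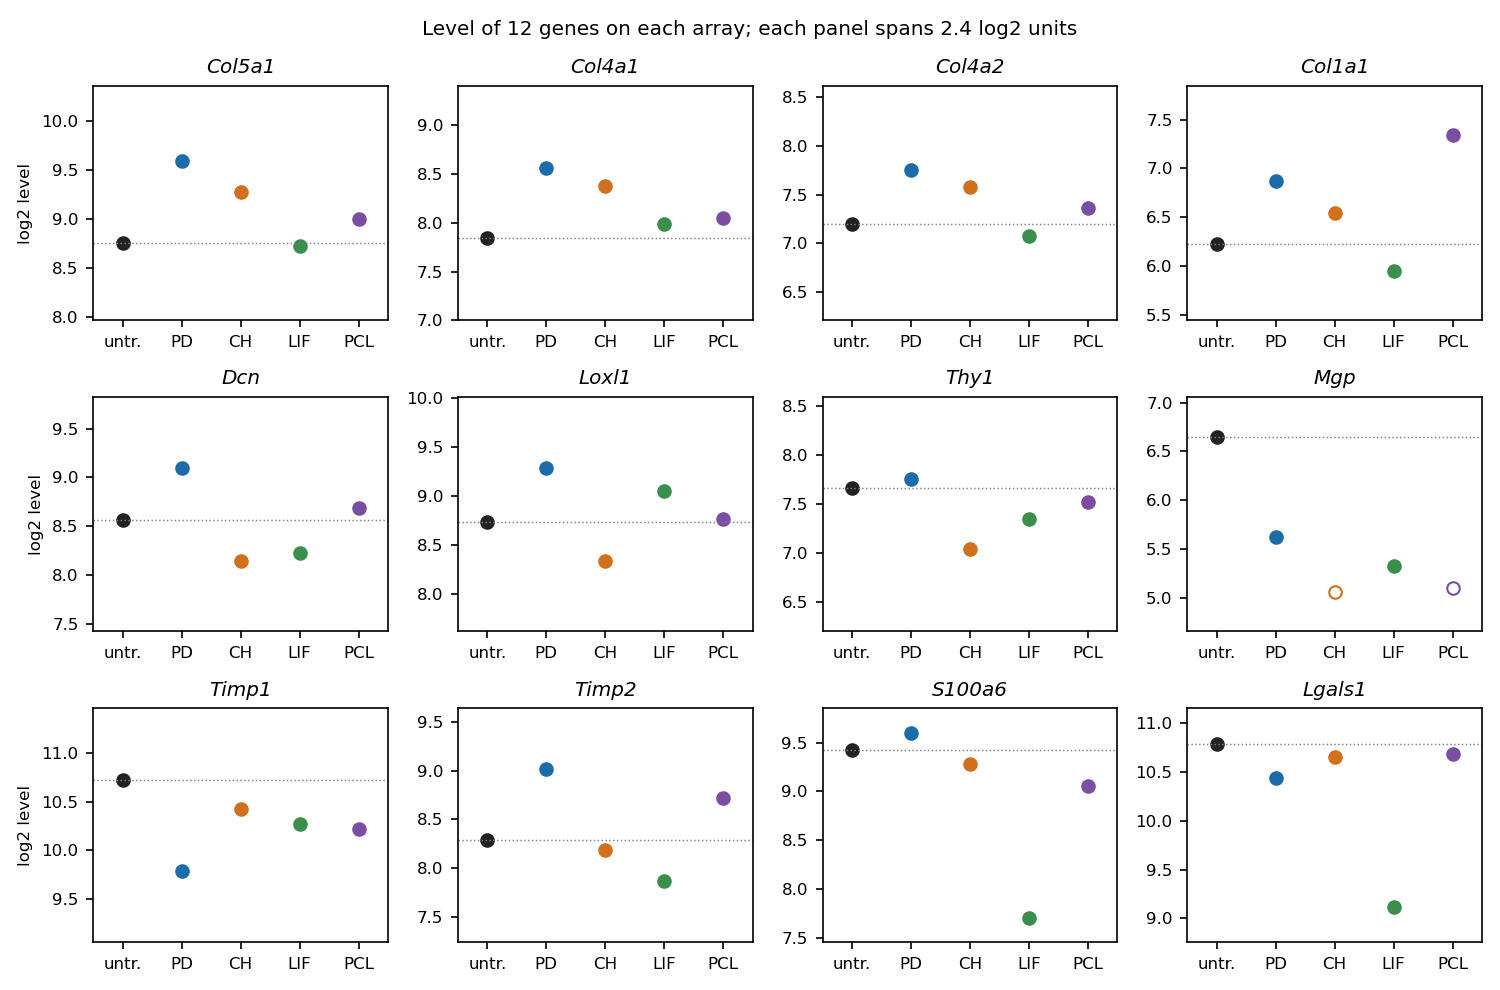
Log2 level of 12 stromal genes on each of the 5 arrays, with 1 point per array, the untreated level as a dotted line and open points where the probe was not detected; each panel spans the same 2.4 log2 units. Col4a1 and Col4a2 are both highest with PD and next with CH, whereas Timp1 and Timp2 move apart with PD, and Lgals1 and S100a6 are low with LIF but not with PCL.

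Of the surface proteins, Thy1, a glycoprotein by which fibroblasts are often recognised, stood at 7.67 untreated, 7.75 under PD, 7.04 under CH, 7.35 under LIF and 7.52 under PCL. It was lowest with CH, at -0.63 ± 0.12, and within its bead error of untreated with PD, at 0.08 ± 0.12. Pdgfra, a PDGF receptor, stood at 5.44 untreated, 5.02 with PD, 5.21 with CH, 4.99 with PCL and 5.42 with LIF. It was not detected with PD or PCL and was there at least 1.30-fold and 1.21-fold lower. Cdh11, a mesenchymal cadherin, stood at 4.74 untreated, where it was not detected, 5.39 under PD, 5.14 under CH, 5.14 under LIF and 5.43 under PCL. These bounds were at least 1.22-fold higher with PD and 1.25-fold with PCL, and 1.03-fold with CH and LIF. Cdh11 and Pdgfra entered the PD and PCL comparisons through the array where each was detected, which fixes their directions there.

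The mesenchymal transcription factors were dim. Twist2 stood at 6.78 untreated, 6.49 with PD, 6.44 with CH, 6.57 with PCL and 6.12 with LIF, below untreated on every treated array and lowest with LIF, at -0.66 ± 0.17. Its relative Twist1 stood at 5.30 untreated, 5.76 under PD, 4.99 under CH, 5.21 under LIF and 5.60 under PCL. It was not detected with CH (at least 1.13-fold lower), and its differences of 0.47 ± 0.29 with PD and 0.30 ± 0.30 with PCL are within 2 bead standard errors of 0. Prrx1, a homeobox factor of limb mesenchyme, was not detected with LIF or PCL and was there at least 1.23-fold and 1.12-fold lower.

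The smooth muscle genes Acta2, for a contractile actin, and Tagln, for the actin-binding transgelin, had like profiles. Acta2 stood at 11.67 untreated, 12.42 with PD, 11.85 with CH, 12.25 with PCL and 11.61 with LIF. Tagln stood at 5.17 untreated, 5.92 under PD, 5.48 under CH, 5.20 under LIF and 6.02 under PCL. Both were highest on the arrays that received PD0325901. The differences of Acta2 were 0.76 ± 0.06 with PD and 0.58 ± 0.07 with PCL, and those of Tagln 0.75 ± 0.21 and 0.85 ± 0.22. The like size with PD depended on the processing of the dim Tagln. Without background correction the PD differences were 0.74 for Acta2 and 0.30 for Tagln, and with an offset of 50 they were 0.75 and 0.44. With LIF the differences of Acta2 and Tagln were -0.06 ± 0.08 and 0.03 ± 0.20. The 3 other detected probes of Acta2 gave 0.40 to 0.96 with PD and 0.40 to 0.84 with PCL, but -0.30 to 0.17 with CH, where no direction is given.

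The 250 bases before the annotated start of Acta2 hold 2 CArG boxes, the element bound by serum response factor in genes of the contractile apparatus. They are shown because Acta2 was among the stromal genes that stood highest with PD. The window is chr19:34255374-34255623 of GRCm38.p6 in RefSeq, minus strand, 5′ to 3′, with the boxes in capitals, starting 84 and 34 bases before the start.
Acta2: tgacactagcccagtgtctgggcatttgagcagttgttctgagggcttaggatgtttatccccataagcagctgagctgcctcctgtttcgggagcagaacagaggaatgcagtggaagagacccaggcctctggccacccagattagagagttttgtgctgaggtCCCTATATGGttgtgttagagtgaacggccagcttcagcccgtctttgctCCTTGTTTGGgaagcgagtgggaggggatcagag

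A box was counted where CC and GG enclose 6 bases of which at most 1 is C or G, a motif that reads the same on both strands. Of 32851 promoter windows of 300 bases, 8.59% held at least 1 such box and 0.67% held 2 or more. Among 26 stromal genes with a window, 2 held it, Acta2 and Col1a2, and 0 held a box with 6 middle bases of A and T alone (1.47% of all windows). A match is a description of letters and not of binding.

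Lgals1 and S100a6 gave the largest differences of any stromal gene detected on all arrays, and both only on the LIF array. Lgals1 (galectin 1) stood at 10.79 untreated, 10.43 with PD, 10.65 with CH, 10.68 with PCL and 9.12 with LIF. S100a6, a calcium-binding protein, stood at 9.43 untreated, 9.60 under PD, 9.28 under CH, 7.71 under LIF and 9.06 under PCL. The LIF differences were -1.67 ± 0.11 and -1.72 ± 0.15, whereas the combination, which also contained LIF, gave -0.11 ± 0.09 and -0.37 ± 0.15. Each rests on 1 detected probe. Vim, for the intermediate filament vimentin, stood at 10.34 untreated, 10.28 with PD, 10.56 with CH, 10.36 with PCL and 10.73 with LIF. It was highest on the same LIF array, at 0.39 ± 0.12.

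Ccl11, the chemokine eotaxin, stood at 5.95 untreated, 4.54 under PD, 5.21 under CH, 5.21 under LIF and 5.11 under PCL. Like Mgp it was highest on the untreated array. It was not detected with PD or PCL, where it was at least 1.84-fold and 1.72-fold lower, and the differences with CH and LIF were -0.74 ± 0.13 and -0.74 ± 0.14. Against the mean of the arrays without the agent the values were -0.02 with CH and -0.03 with LIF, and without background correction both were -0.30, so neither stayed past 1.5-fold. The limit given for Mgp, that all values rest on the 1 untreated array, holds here too.

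A change by 1 common factor would place every stromal gene at the same log2 difference, apart from measurement error and from genes that the epiblast cells also transcribe. The offset added in normalization also pulls dim genes towards 0, so even then dim and bright genes would differ by unlike amounts. The spread between genes is given here as a description, beside error within an array. In the order PD, CH, LIF and PCL, the SD between stromal genes was 0.54, 0.44, 0.56 and 0.51, against a median bead standard error of 0.11, 0.11, 0.12 and 0.11. The SD between detected probes of the same stromal gene (8 genes with 18 probes) was 0.20, 0.17, 0.17 and 0.15. Over all genes compared the SDs were 0.37, 0.34, 0.43 and 0.36, and these too exceeded their median bead standard errors of 0.14, 0.13, 0.13 and 0.14. Neither bead error nor probes of 1 gene cover the spread between cultures, so these values do not separate a changed feeder share, with single genes differing besides, from differences gene by gene.

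**Figure D3:**
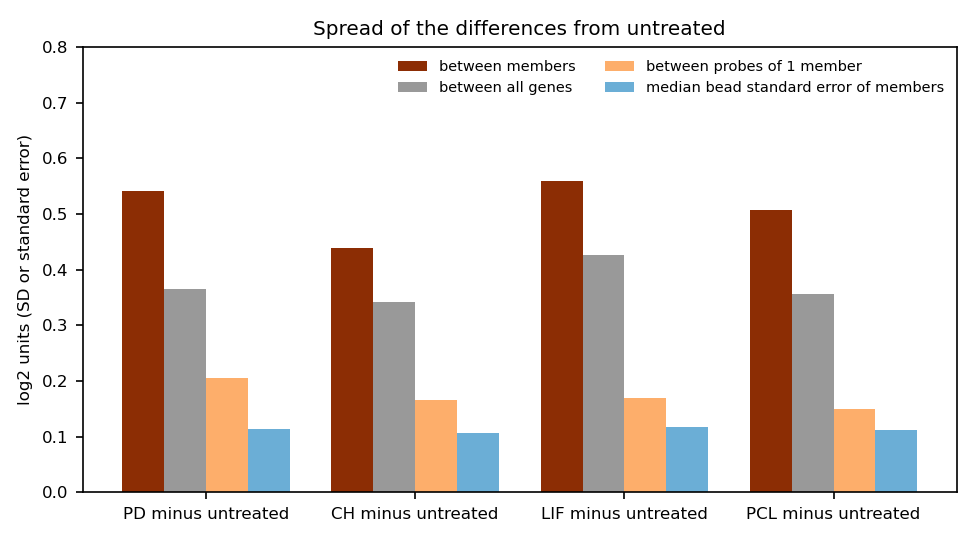
Bars starting at 0 give, for each comparison with the untreated array, the SD of the log2 differences between stromal genes (members), the SD between all genes compared, the pooled SD between probes of the same stromal gene and the median bead standard error. For PD the bars stand at 0.54 between stromal genes, 0.37 between all genes, 0.20 between probes of 1 gene and 0.11 for bead error.

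With PD, 12 of 33 stromal genes (36.4%) lay within 2 bead standard errors of the stromal median, as did 57.1% of all genes around theirs. The numbers were 14 of 34 with CH (41.2% against 64.1%), 15 of 33 with LIF (45.5% against 55.7%) and 18 of 33 with PCL (54.5% against 65.7%). Since the bead errors of the stromal genes were smaller than those of all genes, these shares are descriptions only.

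**Figure D4:**
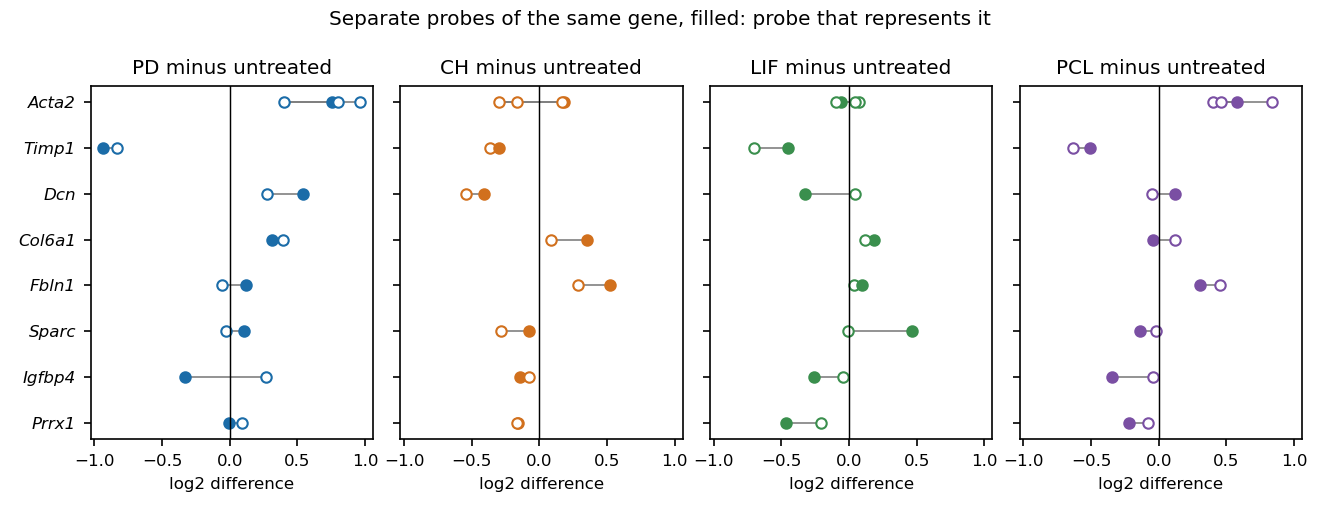
Log2 difference from the untreated array for each probe of the 8 stromal genes with several detected probes, 1 panel per comparison on a shared axis, with the representing probe filled and the others open. Timp1 stays below 0 and Acta2 above 0 with PD for every probe, whereas Igfbp4 with PD and Dcn with LIF have probes on both sides of 0.

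The probes of a gene agreed in part. The largest range between them was 0.60 for Igfbp4 with PD, 0.48 for Acta2 with CH, 0.47 for Sparc with LIF and 0.44 for Acta2 with PCL. The opposite differences of Timp1 and Timp2 with PD, and of Col5a1 and Mgp, were larger than any of these.

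Over the 5 arrays the 27 stromal genes detected on each did not share a profile. The highest array was PD for 13 of them, untreated for 4, PCL for 4, CH for 3 and LIF for 3. The lowest was LIF for 10, CH for 6, PCL for 5, untreated for 4 and PD for 2. The number of treated arrays above untreated was 0 for 4 genes (Timp1, Twist2, Lgals1 and, by its representing probe, Igfbp4), 1 for 5, 2 for 4, 3 for 10 and 4 for 4 (Col4a1, Fbln1, Igfbp3 and Tagln). These counts stand without those of all genes and are descriptions only. Some rest on differences within bead error. Igfbp7 and Thy1 were highest with PD by only 0.005 ± 0.11 and 0.08 ± 0.12 over untreated. The range over the arrays had a median of 0.71, against 0.49 for the 6732 genes detected on all arrays, and ran from 0.26 for Mmp2 to 1.89 for S100a6.

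The combination differed by less than the sum of the single differences for Col5a1, Col4a1 and Col4a2 and by more for Col1a1. The single differences of Col5a1 added up to 1.35 and PCL gave 0.25. For Col4a1 the sum was 1.40 and PCL gave 0.21, and for Col4a2 0.81 and 0.16. For Col1a1 the sum was 0.70 and PCL gave 1.12, and for Igfbp3 1.57 and 0.89. PCL lay below the sum for 15 of the 27 genes, a count given without that of all genes. The median of PCL minus the sum was -0.24, against -0.04 over all 6732 genes. The untreated array enters this sum several times, so a deviation of that array moves every such value.

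Set directly against PD, PCL had 0 of 31 stromal genes higher past 1.5-fold (4.47% of all genes compared) and 1 lower (5.51%), Col5a1 at -0.59 ± 0.07. Against CH, 2 of 33 stood higher (3.01%) and 0 lower (3.8%). They were Col1a1 at 0.80 ± 0.19 and Twist1, past 1.5-fold in its measured value but at least 1.39-fold by its bound. Against LIF, 6 of 32 stood higher (8.87%) and 1 lower (6.19%). The higher genes were Lgals1 at 1.56 ± 0.10, Col1a1 at 1.39 ± 0.17, S100a6 at 1.35 ± 0.14, Timp2 at 0.85 ± 0.12, Tagln at 0.82 ± 0.18 and Acta2 at 0.64 ± 0.08. The lower gene was Sparc at -0.61 ± 0.08, whose other probe gave -0.02. Only the PCL array is shared by these contrasts, and the untreated array enters none of them.

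PD minus untreated can be set beside contrasts with which it shares no array, namely PCL minus CH and PCL minus LIF, in which PD0325901 is added together with another agent. PD minus untreated and PCL minus CH had the same sign for 17 of 27 stromal genes (63.0%), against 52.2% of all genes detected on all arrays, with Pearson's r of 0.37 across genes. PD minus untreated and PCL minus LIF had the same sign for 20 of 27 (74.1%), against 42.2% of all genes, with r of 0.19. Acta2, Tagln, Timp2 and Col1a1 were above 0 in PD minus untreated and in PCL minus LIF. Col5a1, Col4a1 and Col4a2, also above 0 in PD minus untreated, were below 0 in PCL minus CH. Their values there were -0.28 ± 0.07, -0.33 ± 0.09 and -0.22 ± 0.13, against 0.28, 0.07 and 0.29 in PCL minus LIF. LIF minus untreated had the same sign as PCL minus PD for 16 of 27 (59.3%, all genes 38.9%) and as PCL minus CH for 10 of 27 (37.0%, all genes 48.4%), with r of 0.03 and 0.06. CH minus untreated had the same sign as PCL minus PD for 16 of 27 (59.3%, all genes 50.9%) and as PCL minus LIF for 13 of 27 (48.1%, all genes 49.0%), with r of 0.08 and 0.01. A share above that of all genes was thus not limited to PD. Over all genes detected on all arrays, r was 0.16 and -0.13 for the PD pairs in the order given. It was -0.22 and -0.01 for the LIF pairs and 0.21 and 0.12 for the CH pairs. With CH, r was therefore lower across the stromal genes than across all genes in both pairs. Genes are not independent replicates, and each contrast is of 1 array with 1 array.

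The genomic span of a gene moved with its difference on the LIF array. All genes compared were split by span into 10 groups of like number. With LIF the median difference was -0.32 in the group of shortest span and 0.16 in the group of longest span. The stromal genes of the shortest group were Mgp, Twist1, Lgals1 and S100a6, with a median of -1.50 with LIF, and those of the longest group were Col5a1, Col4a1, Col4a2 and Cdh11, with a median of 0.06. S100a6 spans 1.52 kb and Lgals1 3.74 kb in RefSeq, introns included. Less the median of all genes in the same group, the LIF differences were -1.39 for S100a6, -1.35 for Lgals1 and -0.34 for Timp1, so these genes also stood below others of like span.

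**Figure D5:**
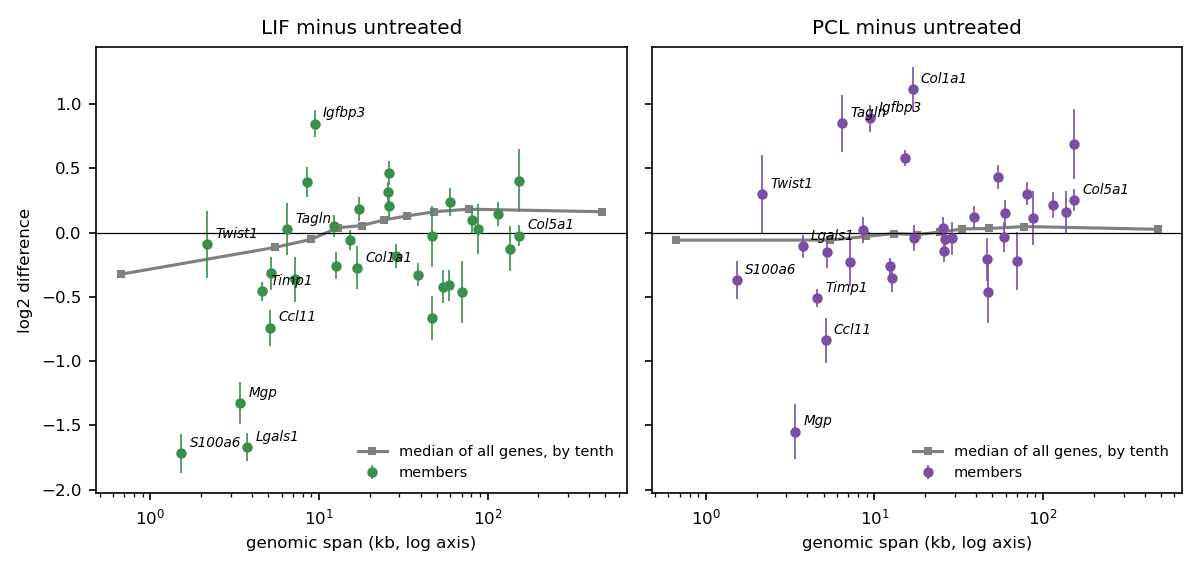
Log2 difference of the stromal genes (points with 1 bead standard error) by genomic span on a log axis in kb, with LIF on the left and PCL on the right, and the median of all genes in 10 groups by span as squares. S100a6, Lgals1 and Mgp are short and lie below the line of all genes with LIF, and with PCL S100a6 and Lgals1 lie closer to it while Mgp stays below.

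A relation of the same sign was present in the other comparisons. Spearman's rho between span and difference over the stromal genes was 0.38, 0.40, 0.36 and 0.39 in the order PD, CH, LIF, PCL, against 0.29, 0.19, 0.34 and 0.12 over all genes compared. With PD, Col5a1 stood 0.68 above and Timp1 at -0.80 against genes of like span. Span is the annotated genomic length, introns included, and not the length of the mature RNA. It moved with the differences in every comparison, and its part in them was not tested beyond this adjustment.

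Genes that act with these were counted in 3 further lists. The lists were chosen with earlier results of these data known, so their counts are no independent support. Collagen processing genes, which hydroxylate, fold, export and crosslink collagen, had medians of 0.07 (PD), 0.03 (CH), 0.31 (LIF) and 0.15 (PCL) over 14 or 15 detected genes. With PD, 1 of 14 stood higher past 1.5-fold (all genes 5.75%) and 0 lower (4.63%), and that gene was Lox, a lysyl oxidase, at 2.12 ± 0.11. Lox was also higher with PCL, at 1.39 ± 0.12. With LIF, 1 of 15 stood higher (all genes 4.3%), the coat protein Sec23a at 0.85 ± 0.13, and with CH 1 of 15 (4.03%), Plod1, a lysyl hydroxylase, at least 1.10-fold by its bound.

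Laminins and other basement membrane genes stood above untreated with PD and CH, as type IV collagen did. All 9 detected stood above 0 with PD (median 0.53) and with CH (median 0.36), 7 of 9 with LIF (median 0.28) and 3 of 9 with PCL (median -0.05). Of all genes compared, 3894 of 7761 stood above 0 with PD, 3737 of 7699 with CH, 4302 of 7796 with LIF and 3776 of 7652 with PCL. Past 1.5-fold, 2 of 9 stood higher with PD (all genes 5.75%), 2 with CH (4.03%), 2 with LIF (4.3%) and 1 with PCL (3.78%), and 0 lower. Lama1, the laminin chain of the embryonic basement membrane, was not detected untreated and stood at least 1.90-fold higher with PD, 2.16-fold with CH, 1.55-fold with LIF and 2.10-fold with PCL. Lama1 entered each comparison through the treated array, which fixes its direction, and it is included in the counts above. Dag1, the laminin receptor dystroglycan, stood at 0.56 ± 0.08 with PD and 0.65 ± 0.09 with CH. The direction with CH held for 8 of 9 when probes of a gene were averaged or when the mean of the arrays without CHIR99021 was the reference, and with LIF for 3 of 9 against the mean of the arrays without LIF.

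A wider list of other stromal and matrix genes stood mostly above untreated with PD and on both sides of it in the other comparisons. It too was chosen with earlier results of these data known, so its shares beside those of all genes are descriptions only. With PD 27 of 30 detected stood above 0 (median 0.32), as did 3894 of all 7761 genes. On the untreated array 26 of this list were detected and on the PD array 30. Genes detected with PD only had to stand above 0, and they are among the 27. Past 1.5-fold 9 stood higher (all genes 5.75%) and 0 lower (4.63%), and past 2-fold 5 higher (0.49%). The farthest were the growth factor carrier Igfbp5 at 1.49 ± 0.08, the inhibitor Timp3 at 1.48 ± 0.15, the stromal glycoprotein Cd248 at 1.48 ± 0.14, whose other probe gave 0.37, and the thrombospondin Thbs1 at 1.36 ± 0.22. With CH 14 of 29 stood above 0 (median -0.04), with 2 higher (all genes 4.03%) and 1 lower (3.95%) past 1.5-fold. With LIF 17 of 28 stood above 0 (median 0.12), with 2 higher (4.3%) and 3 lower (8.5%), among them S100a11, a relative of S100a6, at -1.08 ± 0.07. With PCL 16 of 27 stood above 0 (median 0.10), with 4 higher (3.78%) and 2 lower (4.73%). Timp3 was again high, at 1.49 ± 0.15, and Tnc, the matrix protein tenascin C, low, at -0.79 ± 0.11.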

How the data were processed

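The authors deposited a scanner table per array with a bead intensity on a linear scale, a bead standard error and a detection p-value for each probe, per the file headers. The steps of the deposited detection p-value are 1 in 798, the number of negative controls. Per the submitters' processing notes the tool was BeadStudio (version not given in the sources used). A table of the authors' processed intensity values, with scaling and background step unknown, ranked probes as the scanner tables did (Spearman's rho 1.00, column medians 99.5 for PCL and 100 for the others) and served as an alternative.

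From 400 ng of RNA per array, all 5 arrays entered 1 joint neqc normalization (limma 3.58.1, R 4.3.3: negative-control parameters inferred from detection p, offset 16, quantiles, log2). The step was tested on simulated data in which only bright probes were changed, so that test does not cover dim genes. The offset pulls dim genes towards 0. Of 25697 probes, 23978 had 1 gene symbol in the platform annotation, 0 several and 1719 none, and 23962 matched RefSeq by Entrez identifier. A gene is represented by its brightest probe on average over the arrays. Summed intensities are background-corrected and linear. Software was Python 3.11.15 with matplotlib 3.10.9, numpy 2.4.6 and pandas 2.3.3. The number of arrays limits the precision, and no p-value was computed.

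The genes and lists were chosen with earlier results of these data known. Values on every array are given for genes past 1.5-fold in any comparison and for the 2 brightest of each role, the other stromal genes are given by their differences, and up to 4 genes per list are named by size. Probe sequences were not used here.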

Additional observations from a re-analysis of the deposited data

How the results depend on the processing

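Of 114 alternative values of the medians, counts past 1.5-fold and SDs of the stromal genes, 92 stayed within the bounds set for them and 22 did not, and 0 of those with a called direction reversed. Without background correction the count was 4 with PD (10 as reported), 1 with CH (3) and 3 with PCL (6), and the SD 0.37, 0.27 and 0.31. With PD the share of all genes past 1.5-fold fell as well, from 10.4% to 2.19%, and to 3.54% with an offset of 50. The counts for CH and PCL in this section are given without that share. An offset of 50 gave counts of 1 with CH and 3 with PCL and SDs of 0.42 with PD, 0.32 with CH and 0.37 with PCL. Median scaling gave 5 with CH, and the authors' processed values gave 5 with CH and SDs of 0.62 with CH and 0.70 with PCL. Genes detected on both arrays gave 3 and an SD of 0.39 with PCL. Against genes of like span the PD median was 0.24. Against the mean of the arrays without the agent it was 0.26 (SD 0.43), and the CH median was -0.0097 (SD 0.32). The background correction and the offset act on dim genes by construction, and the cause of the other changes was not tested. With LIF no value left its bounds, but median scaling, which put the median of all genes at 0.19 in place of 0.05, gave the stromal genes 0.02 with 18 of 33 above 0. The PCL median, -0.03, was 0.02 with a detection p under 0.05 or averaged probes and 0.03 with both arrays detected. Normalizing without the LIF array, chosen after seeing the data, gave counts of 10 with PD, 3 with CH and 7 with PCL. Of the values of single stromal genes, 156 were within their bounds, 75 moved and 0 reversed. No paired analysis was possible because each condition has 1 array.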
